A study of Mus musculus with 12 samples.

Results

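The angiomotin genes Amot, Amotl1 and Amotl2, the coactivator genes Yap1 and Wwtr1, the transcription factor genes Tead1, Tead2 and Tead4, and the secreted-protein genes Ccn1 and Ccn2 were followed in R1, a line of embryonic stem cells from the mouse blastocyst. They were chosen by gene symbol. All probe sets that the platform annotation assigns to 1 of these 10 genes alone were taken, which gave 22 of the 45265 probe sets on the 2 array types. The genes were grouped with the difference between differentiated and undifferentiated RNAs already known. Their differences, and the side of the threshold on which each fell, are therefore given as a description only. Array A (MOE430A) held 16 of the probe sets, for 9 of the genes, and array B (MOE430B) held 6, for Amotl1, Tead1 and Ccn1.

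RNAs D1 to D3 came from R1 cells differentiated into embryoid bodies, clusters of cells grown in suspension that start to form the early lineages. RNAs U1 to U3 came from R1 cells labelled undifferentiated, with a purity estimated by eye at 95%. Both groups carry the same growth protocol, in D-MEM with 10% FBS on bacterial Petri dishes for 5 days, so how the cultures differed rests on the group names. The 6 RNAs were each hybridised once to both array types (12 arrays), and the labels do not name separate cultures for the 3 RNAs within a group, so the errors given here may be technical.

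YAP, the product of Yap1, and its relative TAZ, the product of Wwtr1, are coactivators without a DNA-binding domain of their own. They reach their targets through the TEAD factors, and the Hippo kinases keep them out of the nucleus by phosphorylation. Angiomotins are junction and actin-binding proteins that hold YAP in the cytoplasm, and in the early mouse embryo they help to separate the inner cells from the outer trophectoderm. Ccn1 and Ccn2 are widely used readouts of YAP and TEAD activity, although serum and other signals induce them too.

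TEAD factors bind the letters GGAATG, or CATTCC on the other strand. A RefSeq promoter (GRCm38.p6, from 250 bases before the gene start to 50 after) was matched for 7 of the genes, Amot, Amotl1, Amotl2, Yap1, Wwtr1, Tead2 and Ccn1. The motif was found on either strand in 4 of these, against 14.7% of all 32851 promoters of the same length. The 4 matches are printed here in capitals because they place the motif beside a CCN target and beside genes of the pathway itself. The Ccn1 stretch covers the 200 bases before its start (chr3:145649986-145650185, minus strand). The others are 60-base windows around the match, in Amotl2 (chr9:102717712-102717771, plus strand), Yap1 (chr9:8004705-8004764, minus strand) and Wwtr1 (chr3:57576014-57576073, minus strand).
Ccn1: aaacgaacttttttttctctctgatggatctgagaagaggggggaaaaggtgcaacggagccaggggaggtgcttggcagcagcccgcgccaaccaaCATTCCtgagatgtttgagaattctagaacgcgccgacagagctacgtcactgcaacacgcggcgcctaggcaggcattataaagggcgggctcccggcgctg
Amotl2: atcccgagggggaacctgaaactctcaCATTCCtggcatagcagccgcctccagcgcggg
Yap1: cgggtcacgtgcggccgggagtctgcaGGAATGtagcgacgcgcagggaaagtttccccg
Wwtr1: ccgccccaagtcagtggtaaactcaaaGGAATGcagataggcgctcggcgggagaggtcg

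The match begins 103 bases before the start of Ccn1, 65 before that of Amotl2 and 141 before that of Yap1. Wwtr1 has 2 listed starts, and the same match lies 136 bases before one and 170 before the other. The motif was not found in the window of Amot, the gene with the largest difference of the 10. The 150 bases before its start (chrX:145487640-145487789, minus strand) are shown for comparison.
Amot: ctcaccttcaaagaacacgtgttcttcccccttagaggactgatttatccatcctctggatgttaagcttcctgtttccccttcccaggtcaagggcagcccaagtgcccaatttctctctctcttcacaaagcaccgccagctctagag
A second motif, TGANTCA, which reads the same on both strands and is bound by AP-1, was found in 0 of the 7 genes' windows and in 7.81% of all promoters. These matches are letters in a window and were not measured as binding.

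Signals are given as log2 of the MAS5 signal after each array was scaled to a trimmed mean of 500, with a floor of 32 (log2 of 5). A probe set was tested when its mean log2 signal over the 6 arrays of its type was at least 6, which held for 21 of the 22. The level of a probe set depends on its own probes, so levels are compared between RNAs and never between genes. Each array was scaled to the same average, so a change in RNA per cell, or in the number of cells of a type, cannot be told apart from a change in transcript level. The array with the lowest median correlation to its own kind was D1 among the A arrays (r = 0.843) and U2 among the B arrays (r = 0.637).

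On array A, Amot and Tead2 were higher in the differentiated RNAs, and Ccn1 and Ccn2 were lower. Limma with Benjamini-Hochberg adjustment over the whole array put 5 of the 15 tested member probe sets past the 0.05 threshold, 3 higher and 2 lower. Of all 18025 probe sets tested there, 2.87% passed (1.31% higher, 1.56% lower). At an unadjusted p under 0.05 there were 8 member probe sets, beside 15.8% of all. On array B 0 of 6 member probe sets passed, 1 had an unadjusted p under 0.05, while 0.0197% of all 20344 passed and 5.24% had an unadjusted p under 0.05. Since these genes were chosen knowing this contrast, nothing is read from these shares. On array A all D arrays lay above all U arrays for 4 member probe sets (11.0% of all tested) and all U above all D for another 4 (10.1%). On array B all U lay above all D for 1 (5.32%).

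**Figure D1:**
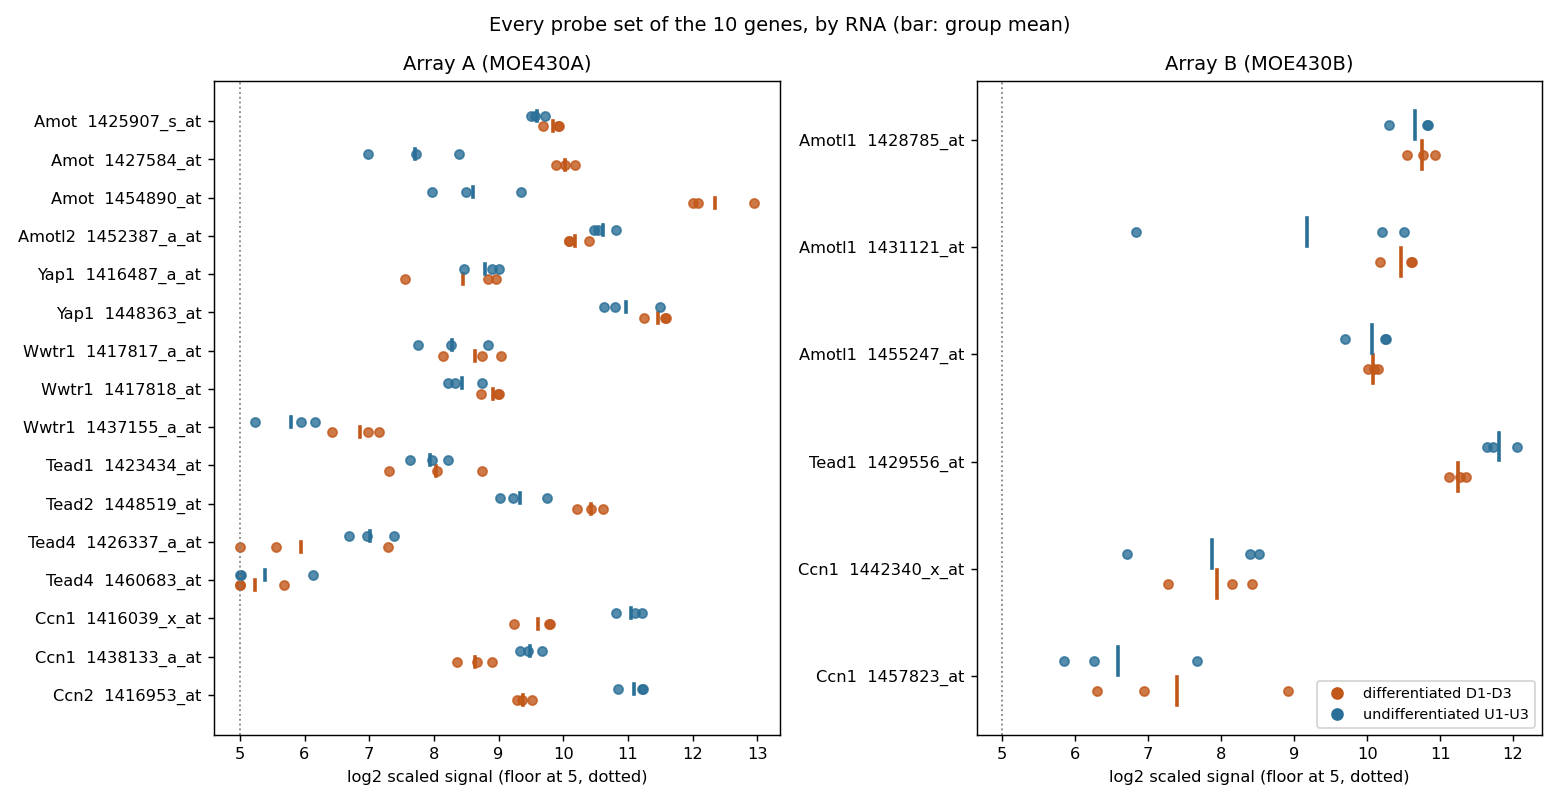
Log2 scaled signal (horizontal axis) of all 22 probe sets of the 10 genes, 1 point per RNA, with differentiated RNAs in orange, undifferentiated in blue, and a bar at each group mean of 3. Of the 3 Amot probe sets, 2 lie to the right in the differentiated RNAs while the other hardly separates, and the array A probe sets of Ccn1 and Ccn2 lie to the left.

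Amot encodes angiomotin, the founding member of the family. Its probe set 1454890_at read 12.95, 12.08 and 12.01 in D1, D2 and D3 and 7.97, 9.35 and 8.50 in U1, U2 and U3 (log2 signal). All differentiated RNAs lay far above all undifferentiated ones, with D1 the highest and U1 the lowest. The log2 difference was 3.74 ± 0.33 (SE, n = 3 each), a fold of 13.4. A second probe set of Amot, 1427584_at, read 10.18, 10.03 and 9.88 in D1 to D3 and 6.98, 8.39 and 7.73 in U1 to U3. Here too the groups were apart, and again U1 was lowest and U2 the highest of its group. Its log2 difference was 2.33 ± 0.33 (SE, n = 3 each), a fold of 5.03, and its call was lost without the intensity trend of the variance model or without the filter on dim probe sets.

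The third Amot probe set differed far less, though with the same sign. 1425907_s_at read 9.69, 9.91 and 9.93 in D1 to D3 and 9.50, 9.56 and 9.71 in U1 to U3, a log2 difference of 0.26 ± 0.17 (SE, n = 3 each). Its groups overlapped, since D1 lay below U3. The 3 differences of this gene lie further apart than their errors, and the ending _s_at marks a kind of probe set that can bind transcripts of more than 1 gene. Where on the gene each probe set lies was not analysed here.

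On array A many of the visceral endoderm markers rose in the same RNAs as Amot, which is known from the visceral endoderm of the mouse embryo. Of 13 such genes 12 were tested, 7 rose and 0 fell (limma, with 8 at an unadjusted p under 0.05, all higher), beside 0.923% and 1.16% of all genes tested on both array types with 1 probe set each. An unadjusted p under 0.05 was reached by 12.6% of all these genes, 5.95% higher and 6.67% lower, and on array A alone the share was larger, as given above. The summed scaled signal of the markers was 7060 to 7441 in D1 to D3 and 2120 to 2775 in U1 to U3. The 3 furthest were Ttr, the carrier of thyroid hormone (log2 difference 4.24, limma adjusted p = 0.000908), Apoa1, an apolipoprotein (3.15, limma adjusted p = 0.00838), and Foxa2, an endoderm transcription factor (2.26, limma adjusted p = 0.000855). The probe sets used for Ttr and Apoa1 end in _x_at, a kind that may bind other transcripts too. The 5 that did not pass were Amn (0.02 ± 0.34, SE), Cubn (0.05 ± 0.78), Hnf4a (0.21 ± 0.30), Apob (0.80 ± 0.36) and Gata4 (0.94 ± 0.26), named with their values in view. Cubn had 1 D and 1 U array at the floor. Afp, named with its values in view and not tested, had 5 probe sets, of which the brightest array reached a log2 signal of 7.25. For Ttr and Apoa1 1 U array each was at the floor. The part of these cells in the Amot difference was not tested.

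**Figure D2:**
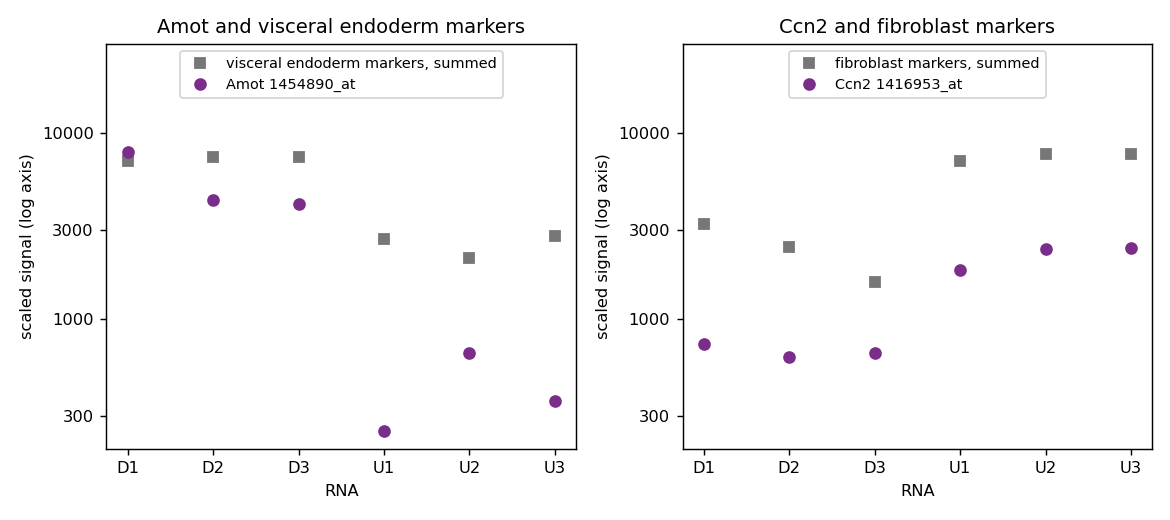
Scaled signal on a log axis for each RNA, with Amot 1454890_at beside the summed visceral endoderm markers (left) and Ccn2 1416953_at beside the summed fibroblast markers (right). Amot runs from 4130 to 7900 in D1 to D3 and from 250 to 653 in U1 to U3, and Ccn2 runs from 624 to 729 and from 1830 to 2390.

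The relatives of Amot gave no probe set past the threshold. Amotl2, another angiomotin and also a YAP target, had a single probe set, 1452387_a_at, which read 10.08, 10.40 and 10.08 in D1 to D3 and 10.81, 10.54 and 10.48 in U1 to U3. Every U array lay above every D array, though by little. The log2 difference was -0.43 ± 0.16 (SE, n = 3 each) and did not pass. Amotl1 was measured by 3 probe sets on array B. Probe set 1428785_at read 10.54 to 10.93 in D and 10.30 to 10.84 in U, and 1455247_at read 10.01 to 10.15 and 9.70 to 10.26, with log2 differences of 0.10 ± 0.26 and 0.01 ± 0.28 (SE, n = 3 each). Their groups overlapped, and both differences took either sign when 1 RNA was left out.

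The third Amotl1 probe set, 1431121_at, shows how 1 array can set a difference. It read 10.61, 10.60 and 10.17 in D1 to D3 and 10.20, 6.83 and 10.51 in U1 to U3. U2, the array that correlated least with the others on array B, was alone in being low. The log2 difference was 1.28 ± 0.82 (SE, n = 3 each), and 0.10 without U2.

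Yap1 had 2 probe sets on array A, whose differences had opposite signs. Probe set 1448363_at read 11.59, 11.57 and 11.24 in D1 to D3 and 11.49, 10.80 and 10.63 in U1 to U3, a log2 difference of 0.49 ± 0.21 (SE, n = 3 each). U1 lay among the differentiated RNAs. Probe set 1416487_a_at read 7.56, 8.96 and 8.83 and then 8.47, 8.90 and 9.0, a difference of -0.34 ± 0.37 (SE, n = 3 each) that was 0.10 without D1. D1 was low for this probe set alone of the 2. Neither passed, and 1448363_at did so only when U1 was left out, with a difference of 0.75.

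Wwtr1, which encodes TAZ, had 3 probe sets on array A. Probe set 1417818_at read 9.01, 8.72 and 8.99 in D1 to D3 and 8.75, 8.32 and 8.22 in U1 to U3, a log2 difference of 0.47 ± 0.25 (SE, n = 3 each). D2 lay just below U1, so the groups overlapped. Probe set 1417817_a_at ranged from 8.14 to 9.04 in D and from 7.76 to 8.83 in U, a difference of 0.35 ± 0.35 (SE, n = 3 each) that was 0.09 without U1 and 0.63 without U3. The dim probe set 1437155_a_at, with a mean of 6.32, read 6.98, 6.43 and 7.15 in D1 to D3 and 6.16, 5.24 and 5.95 in U1 to U3. Here all D arrays lay above all U arrays. Its difference was 1.07 ± 0.61 (SE, n = 3 each). All 3 lay above 0 and none passed.

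Of the TEAD genes, Tead2 was higher. TEAD2 is a family member known for expression in the early mouse embryo. Its probe set 1448519_at read 10.62, 10.43 and 10.21 in D1 to D3 and 9.75, 9.22 and 9.02 in U1 to U3. The groups did not overlap, and U1 was the closest to the differentiated RNAs. The log2 difference was 1.09 ± 0.22 (SE, n = 3 each), a fold of 2.13. Against U1 alone, the only U array from the same array lot as D1 to D3, it was 0.67 and no longer passed. It also missed the threshold without D1 (0.99), D2 (1.08), U2 (1.04) or U3 (0.93), and without the intensity trend or the filter.

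Tead1, which is broadly expressed, was measured on both array types, and neither difference passed. On array B, 1429556_at read 11.12, 11.35 and 11.27 in D1 to D3 and 11.64, 12.05 and 11.72 in U1 to U3. All U arrays lay above all D arrays, with a log2 difference of -0.56 ± 0.22 (SE, n = 3 each) that did not pass. On array A, 1423434_at read 8.74, 8.05 and 7.31 and then 7.63, 7.97 and 8.22, a difference of 0.09 ± 0.40 (SE, n = 3 each). The differentiated RNAs spread on both sides of the others there, and the difference was -0.26 without D1.

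Tead4, the factor that specifies trophectoderm in the mouse blastocyst, lay near the floor. Its probe set 1426337_a_at read 5.56, 7.29 and 5.00 in D1 to D3 and 6.69, 6.97 and 7.38 in U1 to U3, a log2 difference of -1.06 ± 0.69 (SE, n = 3 each). D3 was at the floor and D2 lay among the U arrays. The difference was -1.73 without D2 and -0.59 without D3. Probe set 1460683_at had a mean of 5.31, with 2 D arrays and 1 U array at the floor, and was not tested. No fold is given for it.

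**Figure D3:**
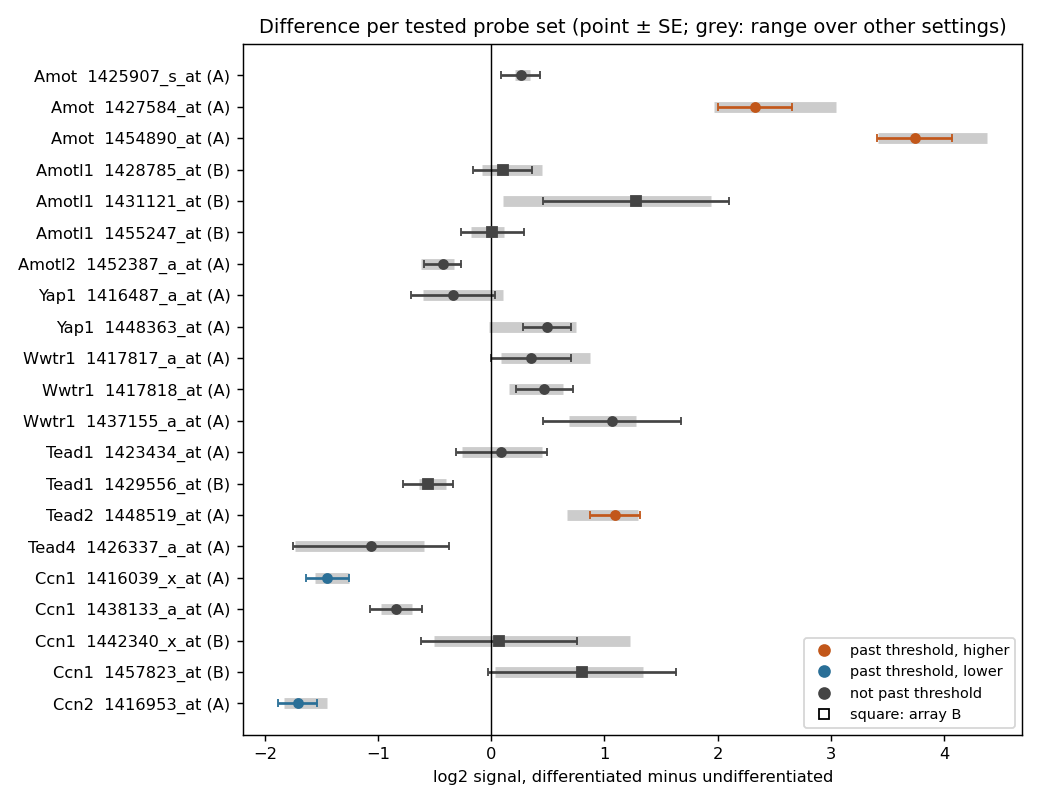
Differentiated minus undifferentiated log2 signal for the 21 tested probe sets (points, with bars of 1 SE), coloured where limma's adjusted p passed 0.05, with circles for array A and squares for array B. Grey bands span the other settings. The bands of Amot 1427584_at and 1454890_at, of Ccn1 1416039_x_at and of Ccn2 stay well away from 0.

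Ccn2 encodes connective tissue growth factor, a secreted matricellular protein. Probe set 1416953_at read 9.51, 9.28 and 9.36 in D1 to D3 and 10.84, 11.21 and 11.23 in U1 to U3. The groups were tight and far apart. The log2 difference was -1.71 ± 0.17 (SE, n = 3 each), so the undifferentiated RNAs were 3.27-fold higher. Within the shared array lot the 3 D arrays lay 1.45 below U1 on average, with D1 at -1.33, D2 at -1.55 and D3 at -1.48.

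Ccn1, the related gene that encodes CYR61 and whose promoter is printed above, gave lower values on array A and not on array B. Probe set 1416039_x_at read 9.79, 9.24 and 9.78 in D1 to D3 and 11.11, 10.82 and 11.22 in U1 to U3. No D array reached any U array, and the log2 difference was -1.45 ± 0.19 (SE, n = 3 each), a 2.72-fold higher level in the undifferentiated RNAs. The ending _x_at, like _s_at, marks a kind of probe set that may bind other transcripts too. The call was lost with the array lot as a block, where the difference was -1.50, and without the intensity trend or the filter. Probe set 1438133_a_at read 8.90, 8.67 and 8.35 and then 9.45, 9.67 and 9.33. It too was separated, with a smaller difference of -0.84 ± 0.23 (SE, n = 3 each) that did not pass.

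The 2 array B probe sets of Ccn1 overlapped between the groups. Probe set 1442340_x_at ranged from 7.27 to 8.42 in D and from 6.71 to 8.52 in U, and 1457823_at from 6.30 to 8.92 and from 5.84 to 7.67. Their log2 differences were 0.07 ± 0.69 and 0.80 ± 0.83 (SE, n = 3 each). Leaving out 1 RNA at a time moved the first between -0.51 (without U1) and 0.41 (without D2), and the second between 0.03 (without D1) and 1.34 (without D3). With the fluidics station as a block, which sets the D arrays against U1 alone, they were 1.23 and 1.13. The SEs of 0.69 and 0.83 are larger than the 0.19 and 0.23 of the array A probe sets. The array B differences did not pass and did not repeat the array A fall of -1.45 and -0.84. Why the probe sets of this gene differ was not tested.

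Some of the fibroblast markers were lower in the same RNAs as Ccn1 and Ccn2, both of which fibroblasts express. Of 12 such genes 10 were tested, 4 fell, 0 rose and 6 did not pass (limma, with 5 at an unadjusted p under 0.05, all lower). Of all genes tested 1.16% fell and 0.923% rose, and 6.67% were lower at an unadjusted p under 0.05. On array A alone 15.8% of all probe sets reached such a p in either direction. Among the 10 markers 7 differences lay below 0 and 3 above, with a median of -1.12. The summed scaled signal of the 9 measured on array A was 1582 to 3237 in D1 to D3 and 7018 to 7698 in U1 to U3. S100a4, a calcium-binding protein (log2 difference -3.83, limma adjusted p = 0.00136), Bgn, the proteoglycan biglycan (-3.63, limma adjusted p = 0.0243), and Fbln2, a matrix fibulin (-2.20, limma adjusted p = 0.00085), were the furthest. The 3 above 0 were the matrix proteoglycans Lum (0.84 ± 0.56, SE) and, on array B and so outside the sum, Dcn (0.74 ± 0.49), and the transcription factor Twist2 (0.30 ± 0.44). Bgn and Col3a1, a fibrillar collagen, each had 1 D array at the floor, and Pdgfrb and Postn were under the filter on dim probe sets. Lum, Dcn, Twist2, Col3a1, Pdgfrb and Postn were named with their values in view. The part of fibroblasts in the Ccn1 and Ccn2 differences was not tested.

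Stem cell markers were well above the floor in both groups. Pou5f1 had a log2 signal of 11.88 ± 0.20 in D and 12.15 ± 0.04 in U (SD, n = 3 each), Nanog 10.74 ± 0.79 and 11.30 ± 0.11, and Sox2 11.06 ± 0.32 and 11.09 ± 0.13, and none of the 3 passed. Of the 10 markers tested 1 fell, Tdgf1, a Nodal coreceptor (-2.04, limma adjusted p = 0.00405). In all 9 differences lay below 0, with a median of -0.60, and 4 genes had an unadjusted p under 0.05, all lower. Besides Tdgf1 these were the pluripotency genes Zfp42 (-1.18, limma adjusted p = 0.127), Dppa5a (-1.05, limma adjusted p = 0.096) and Utf1 (-0.64, limma adjusted p = 0.083). Of all genes tested 1.16% fell, and 6.67% were lower at an unadjusted p under 0.05. For array A, which held these markers, 15.8% of all probe sets had such a p in either direction.

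Trophoblast is the lineage in which TEAD4 acts. Of 8 of its markers 5 were tested, 1 rose and 0 fell, with a median of 0.47 and 3 at an unadjusted p under 0.05, all higher. Among all genes tested 0.923% rose, and 5.95% were higher at an unadjusted p under 0.05. On array A alone 15.8% of all probe sets had such a p in either direction. The keratin gene Krt18, which like Krt8 marks more than trophoblast, rose (1.23, limma adjusted p = 0.00326). The others of the 3 were Eomes, a T-box factor that marks more than trophoblast (10.02 ± 0.27 in D and 9.10 ± 0.59 in U, SD, n = 3 each, limma adjusted p = 0.127), and the keratin gene Krt8 (0.46, limma adjusted p = 0.169). The factors Hand1 and Tfap2c stood at 0.47 ± 0.23 and -0.44 ± 0.24 (SE) and did not pass, and Cdx2, Elf5 and Gata3 were under the filter. Of the stem cell and trophoblast genes, those other than Pou5f1, Nanog, Sox2, Tdgf1 and Krt18 were named with their values in view.

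All D arrays of type A were washed on 1 fluidics station and all U arrays on the other, so station cannot be told apart from group on this type. D1, D2, D3 and U1 were of array lot 1, while U2 and U3 were of lot 2. Within lot 1 the mean difference from U1 was 4.38 for Amot 1454890_at and 3.05 for 1427584_at, -1.50 for Ccn1 1416039_x_at and -0.81 for 1438133_a_at. For these 4 probe sets each of D1, D2 and D3 lay on the same side of U1. The arrays of type B shared 1 lot, with D1, D2, D3 and U1 washed on 1 station and U2 and U3 on the other.

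Other genes of the pathway were read from 5 lists, with 1 probe set for each gene. Of 56 genes listed 50 were tested, 0 rose, 1 fell and 49 did not pass, which is 2.0% beside 2.08% of all 16461 genes tested (0.923% rose and 1.16% fell). The median log2 difference was -0.04, against 0.01 over all genes. For the list counts at an unadjusted p under 0.05 given below, the share over all genes tested was 12.6%. Only Igfbp3, which encodes a carrier of insulin-like growth factors, from the list of YAP targets, fell, and this was known before the lists were drawn up. Its log2 difference was -3.10 ± 0.32 (SE, limma adjusted p = 0.000727) on array A and -1.88 ± 0.21 (SE, limma adjusted p = 0.044) on array B.

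The core kinases that phosphorylate YAP and TAZ, with their adaptors, gave no call. Of 11 genes 10 were tested, 0 passed limma's threshold and 1 had an unadjusted p under 0.05, Map4k4, an upstream kinase, at 0.55 ± 0.21 (SE). The YAP kinases Lats1 and Lats2 stood at 0.39 ± 0.58 and -0.20 ± 0.38, and Mob1b, a cofactor of these kinases, at 0.91 ± 0.43 (SE). Other probe sets of Map4k4 stood at 0.31 ± 0.52, -0.29 ± 0.52 and 0.22 ± 0.58 (SE), with no unadjusted p under 0.05. Those of Lats2 stood at 0.69 ± 0.61 and -0.33 ± 0.68, that of Lats1 at -0.09 ± 0.26 and that of Mob1b at 0.90 ± 0.68. The list median was 0.15. These 4 genes were chosen with their values in view.

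Junction and upstream regulators were spread on both sides of 0. Of 19 genes 17 were tested and 0 passed limma's threshold, with 4 at an unadjusted p under 0.05, and the median was -0.17. On array A, which measured 13 of the 17, 15.8% of all probe sets had such a p. The 4 were Pard3, a polarity protein (0.53 ± 0.18, SE), Tjp1, the tight junction scaffold ZO-1 (0.50 ± 0.16), Ajuba, a LIM protein that binds LATS kinases (-0.47 ± 0.17), and Fat1, an atypical cadherin measured on array B (-1.69 ± 0.28, limma adjusted p = 0.408). Nf2, which encodes merlin, stood at -0.01 ± 0.18 (SE). Other probe sets stood at -0.21 ± 0.64 and 0.35 ± 0.47 for Pard3, and from -0.66 to -0.03 for Nf2. These 5 genes were likewise chosen with their values in view.

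The remaining TEAD gene and the VGLL cofactors, which compete with YAP for TEADs, numbered 5, of which 4 were tested and 0 passed limma's threshold or an unadjusted p of 0.05, with a median of 0.12. Tead3 stood at 0.05 ± 0.28 (SE), and Vgll1 was at the floor on all 6 arrays. These counts rest on the 1 probe set chosen for each gene. Another probe set of Vgll3 had a difference of -3.45 ± 0.55 (SE, limma unadjusted p = 0.000119, adjusted p = 0.404). The one chosen for the list stood at -0.90 ± 0.55 and the remaining one at -0.20 ± 0.63. Tead3, Vgll1 and Vgll3 were named with their values in view.

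The list of YAP targets held 19 genes besides the members, of which 18 were tested, 0 rose and 1 fell, Igfbp3. The median was -0.17, with 5 genes above 0 and 12 below. Axl, a receptor tyrosine kinase (-1.17 ± 0.36, SE, limma adjusted p = 0.125), and Ccdc80, a matrix protein (-2.10 ± 0.57, SE, limma adjusted p = 0.0806), did not pass, and 3 genes in all had an unadjusted p under 0.05. Another probe set of Axl stood at -0.41 ± 0.37 (SE). Ankrd1, a nuclear ankyrin-repeat protein often used as a YAP readout beside Ccn1 and Ccn2, stood at 0.59 ± 0.64 (SE, limma adjusted p = 0.735). Of the other CCN genes 3 of 4 were tested and 0 passed limma's threshold, with 1 at an unadjusted p under 0.05, Ccn5, at -0.81 ± 0.37 (SE). Axl, Ccdc80, Ankrd1 and Ccn5 were chosen with their values in view.

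**Figure D4:**
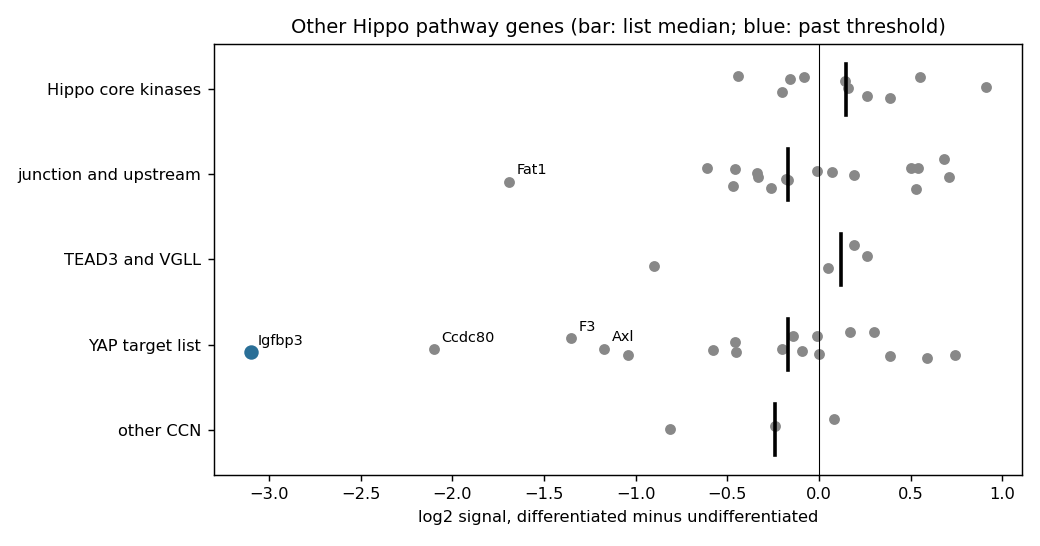
Differentiated minus undifferentiated log2 signal (horizontal axis) of the tested genes in each of 5 pathway lists, 1 point per gene, with a bar at the list median and Igfbp3, the only gene past limma's threshold, in blue. List medians lie between -0.24 and 0.15.

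The genes whose profile over the 6 array A RNAs was nearest to that of Amot 1454890_at, by the root mean square difference of centred log2 signals, were Lhx1 (0.461), Cyp26a1 (0.528), Spink1 (0.538) and 4632415L05Rik (0.636). Lhx1 is a homeobox factor of the organiser, Cyp26a1 degrades retinoic acid, and Spink1 is a trypsin inhibitor. Their log2 differences were 4.08, 3.06, 3.94 and 2.54. Lhx1 and 4632415L05Rik were each at the floor on 2 of the 3 U arrays, so the floor sets part of their differences and distances. Cyp26a1 shared the low U1 of Amot, at 6.71 in U1 against 8.64 and 8.44 in U2 and U3.

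Genes nearest to Ccn2 by the same measure were Fgfbp1 (0.102), Vcl (0.107), Col18a1 (0.176) and Calml4 (0.181). Fgfbp1 binds fibroblast growth factors, Vcl encodes vinculin of cell adhesions, and Col18a1 encodes a basement membrane collagen. Their log2 differences were -1.66, -1.51, -1.97 and -1.59, beside -1.71 for Ccn2. Vcl read 10.51, 10.18 and 10.33 in D1 to D3 and 11.54, 11.98 and 12.01 in U1 to U3, with U1 the lowest of its group as for Ccn2. With 6 RNAs in 2 groups, these distances describe the profiles and carry no test.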

How the data were processed

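The authors deposited linear intensities made with MAS5, per the submitters' processing notes, as 1 value for each array and probe set. Its version, scaling target and the genome build are not given in the sources used. The arrays' 2% trimmed means, 1500.1 to 1500.55, were alike as deposited. Gene names came from the platform annotation, updated through RefSeq identifiers (0 symbols changed).

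Each array was rescaled to a trimmed mean of 500, floored at 32 and taken to log2. Probe sets with a mean log2 under 6 and controls were left out. Differences were fitted with limma 3.58.1 in R 4.3.3 (lmFit, eBayes with an intensity trend), separately for the array types, two-sided, with Benjamini-Hochberg adjustment over an array. A list gene was represented by 1 probe set, array A first, then the highest mean signal. The members, gene lists and tests were chosen with earlier results of these data known. Named genes are the members, called list genes up to 3 a direction, Pou5f1, Nanog and Sox2, and the 4 profiles nearest to Amot and to Ccn2; others were picked after their values were seen and are marked so. Tested on simulated data with known changes, the model recovered most large and few small changes on array A and few of either on array B, with a share of false calls above the threshold on both and well above it on array A. The number of arrays limits the precision.

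Same-numbered D and U arrays deviated from their group means with correlations of 0.157, 0.0123 and 0.0725 on array A. On array B these were 0.183, 0.0966 and 0.118. For differently numbered arrays the correlations ran from -0.145 to 0.0896 on array A and from -0.144 to 0.0333 on array B. Every same-numbered value on array B thus lay above every other one, while on array A the ranges overlapped. The main model did not take the numbers as pairs, and whether they mark pairs was not tested. Alternatives were a floor of 16, a pseudocount of 32, no filter or a filter at 8, median centring, quantile normalisation, no intensity trend, a replicate block, an array lot or station block, adjustment over both arrays, and leaving out each RNA.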

Additional observations from a re-analysis of the deposited data

How the results depend on the processing

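Among the 21 member probe sets, 0 of the differences that passed changed sign under any alternative. Amot 1454890_at and Ccn2 1416953_at passed in 16 of 16 alternatives, Amot 1427584_at in 14, Ccn1 1416039_x_at in 13 and Tead2 in 9. The number of member probe sets past the threshold, 5, was 2 without the intensity trend, 2 without a filter, 3 with the lot or station block, and 4 to 6 when RNAs were left out in turn. Array A calls, 518 in all, numbered 319 with adjustment over both arrays, 97 without trend, 106 with the lot or station block, 307 with median centring, 194 without a filter, and 190 (without U3) to 497 (without D1) when RNAs were left out. Without U2 there were 214 and without D3 313. With the replicate block 724 were called on array A and 1 on array B. It left the member count at 5 and the pathway count at 1. Array B calls, 4 in all, numbered 10 with adjustment over both arrays, 2 with a floor of 16, a pseudocount of 32 or median centring, and 1 without a filter. Limma gave 0 without trend and 0 with the block, with 1098 and 554 probe sets at an unadjusted p under 0.05. It gave 0 to 2 when RNAs were left out, with 732 to 1963 at an unadjusted p under 0.05. Pathway genes past the threshold, 1 in all, were 2 with adjustment over both arrays, 2 when every probe set was counted, and 1 to 2 when RNAs were left out. The lot or station block, with U1 alone as the undifferentiated level in the batch, moved 8 member differences by more than the spread between replicates, Tead2 from 1.09 to 0.67 and Yap1 1448363_at from 0.49 to -0.02. The cause was not tested.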
